A study of Mus musculus with 12 samples.

Results

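The genes described here are the clustered histone genes of the mouse, mostly replication-dependent genes for the linker histone H1 and the core histones H2A, H2B, H3 and H4. They were taken as every row of the deposited count table whose symbol begins with Hist1h, Hist2h, Hist3h or Hist4h, under the deposited symbol or under an older symbol of the same gene in RefSeq. Only 9 rows carry such a symbol in the table itself, and 61 more are listed under newer names such as H1f1 (formerly Hist1h1a) or H4c4 (formerly Hist1h4d), which gave 70 genes among 55291 rows. With a mean of at least 10 counts over the 12 libraries, 68 are reported: 6 of H1, 19 of H2A, 19 of H2B, 11 of H3 and 13 of H4. H2ac18 and H3c14 fell below that mean. Among the 68, RefSeq lists H2ac14 as a pseudogene and H2bu1-ps and Hist1h2al as transcribed pseudogenes. By the RefSeq positions on GRCm38.p6, 56 of the 70 lie on chromosome 13, 10 on chromosome 3, 3 on chromosome 11 and 1 on chromosome 6.

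Replication-dependent histone genes are transcribed mainly in S phase, when newly copied DNA must be packed into nucleosomes, and their mRNAs are degraded when replication ends. Cyclin E and CDK2 act on NPAT, a coactivator at these genes. The transcripts lack introns and most lack a poly(A) tail: they end in a short stem-loop that is bound by SLBP. Libraries made from total RNA after removal of ribosomal RNA, as here, do not select for a poly(A) tail. T cells that divide after activation make large amounts of these transcripts, and DOCK8, a guanine nucleotide exchange factor for CDC42, is known for keeping the shape of T cells that move through tight spaces.

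The samples were CD8+ T cells from lymph node and spleen of wild-type (WT) or Dock8 knockout (KO) mice, with 3 mice in each group. All cells were first activated and grown outside the animal for 3 days. They then spent another 24 h either in media or in a bovine collagen gel at 2 mg/mL, where T cells migrate. This makes 4 groups of 3 libraries: WT media, WT gel, KO media and KO gel. The sources used here do not give the age, strain or knockout allele of the mice, nor whether a mouse gave cells to both cultures. Levels are CPM, counts per 1000000 of the scaled library total. Log2 fold changes, standard errors (SE) and adjusted p-values come from the quasi-likelihood test of edgeR, with p adjusted by Benjamini-Hochberg over 19010 genes, among which all 68 histone genes were tested, and a call is an adjusted p under 0.05.

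Dock8 itself ran from 363 to 450 CPM in the 6 WT libraries and from 109 to 168 CPM in the 6 KO libraries, without overlap. Cd8a lay between 517 and 744 CPM in all libraries. Library totals ran from 28483064 to 61390702 counts. The KO gel libraries stood apart from the others in genes detected: 28362 to 30104 at a common depth of 28483064 counts, against 24336 to 25142 in the other 9. Mitochondrial transcripts took 2.27 to 2.61% of their counts, against 1.34 to 2.31% elsewhere, with an overlap at KO media replicate 2. Markers of other blood and stromal cells (25 genes, of which 13 were tested) summed to 80.0 to 109 CPM for KO gel, 74.8 to 89.4 for KO media, 56.6 to 80.2 for WT gel and 52.1 to 81.5 for WT media. Itgax was the largest part, with means of 36.5 CPM in KO gel, 38.1 in KO media, 22.7 in WT gel and 22.3 in WT media. S100a9 was at 0 in every library. Csf1r was at 0 in all KO media libraries and reached 0.1 CPM in KO gel. Against WT gel, 4 of the 13 markers were called higher in KO gel (7.12% of all genes tested) and 0 lower (7.71%). The 4 were Pf4 by 2.75, Itga2b by 1.71, Cpa3 by 1.45 and Cd4 by 1.15 on the log2 scale. In KO gel against KO media 3 of the 13 markers rose, where 11.1% of all genes tested were called higher. These were Itga2b by 1.55, Cd4 by 0.81 and Kit by 0.75 on the log2 scale. The calls of Cd4 and Kit were lost without single KO libraries: KO gel replicate 2 or KO media replicate 1 for both, and KO gel replicate 3 or KO media replicate 2 for Cd4 (adjusted p up to 0.173). The part of these differences in the histone results was not tested.

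Most histone genes of the 4 core classes, and 3 of 6 of the H1 class, were lower in KO cells after culture in gel. In WT cells the same culture gave no called change in the reported fit, which does not pair libraries. The 68 genes summed to 22129, 20845 and 19391 CPM in the 3 KO media libraries and to 14401, 15801 and 14349 CPM in the 3 KO gel libraries. In WT cells the sums were 25626, 19591 and 20054 CPM in media and 23229, 20285 and 19103 CPM in gel. All 3 KO gel libraries lay below the other 9, and WT replicate 1 was the highest library of its group in both cultures. The mean in gel was 0.714 times that in media for KO and 0.959 times for WT. Per class, the KO gel means were 3217 ± 196 CPM for H1, 2293 ± 149 for H2A, 3465 ± 180 for H2B, 2013 ± 126 for H3 and 3863 ± 206 for H4 (SD, n = 3). The KO media means were 4223 ± 327 CPM for H1, 3170 ± 249 for H2A, 4956 ± 357 for H2B, 2884 ± 255 for H3 and 5556 ± 416 for H4 (SD, n = 3). As these are bulk libraries, fewer cells in S phase and less histone mRNA per cell cannot be told apart.

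**Figure D1:**
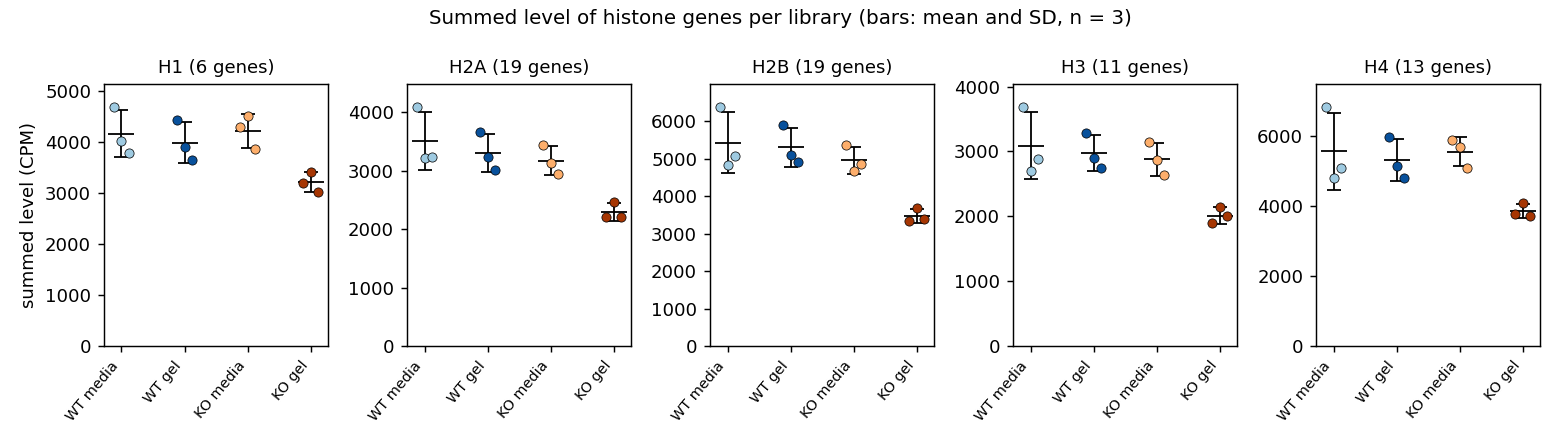
Summed level in CPM (vertical axis) of the reported genes of each histone class in the 12 libraries, by group (horizontal axis). Points are libraries and bars the mean and SD of 3; in every class the 3 KO gel libraries lie below the other 9.

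By gene, 61 of 68 were called lower and 2 higher in KO gel against KO media, where 9.74% of all genes tested were called lower and 11.1% higher. The median log2 fold change was -0.50 for the 68 and -0.01 for all genes. Levels of KO gel and KO media did not overlap for 67 of the 68, 65 lower (23.9% of all genes) and 2 higher (23.5%). H1f6 was the exception, with 0.2 to 0.3 CPM in gel and 0.3 to 0.7 in media. All 11 H3 genes fell, with 12 of 13 H4, 18 of 19 H2B, 17 of 19 H2A and 3 of 6 H1 genes. The 5 genes not called were H1f2, H1f4, H1f6, H2ac1 and H4f16. Calls held in each of 12 fits that left out 1 library for 48 of the 61 lower genes and for both higher ones.

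In WT cells 0 of 68 were called between gel and media, where 0.0368% of all genes were, and 4 had an unadjusted p under 0.05 (5.43% of all genes). DESeq2 also called 0. The median was -0.06 (all genes -0.01), and 57 of the 68 values were below 0. Same-numbered WT libraries deviated together. With the replicate number within each genotype as a block, 4 histone genes were called lower, where 171 of all 19010 genes were called in either direction. They were H1f1 by -0.29 (adjusted p 0.00566), H2bu2 by -0.33 (0.0134), H2ac21 by -0.30 (0.0233) and H2bu1-ps by -0.27 (0.0446), by edgeR's quasi-likelihood test. H2ac21 was also the only histone gene whose WT groups did not overlap, with 45.0, 40.5 and 36.3 CPM in gel and 59.8, 45.7 and 45.3 CPM in media. In the same comparison 4.53% of all genes were lower without overlap.

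**Figure D2:**
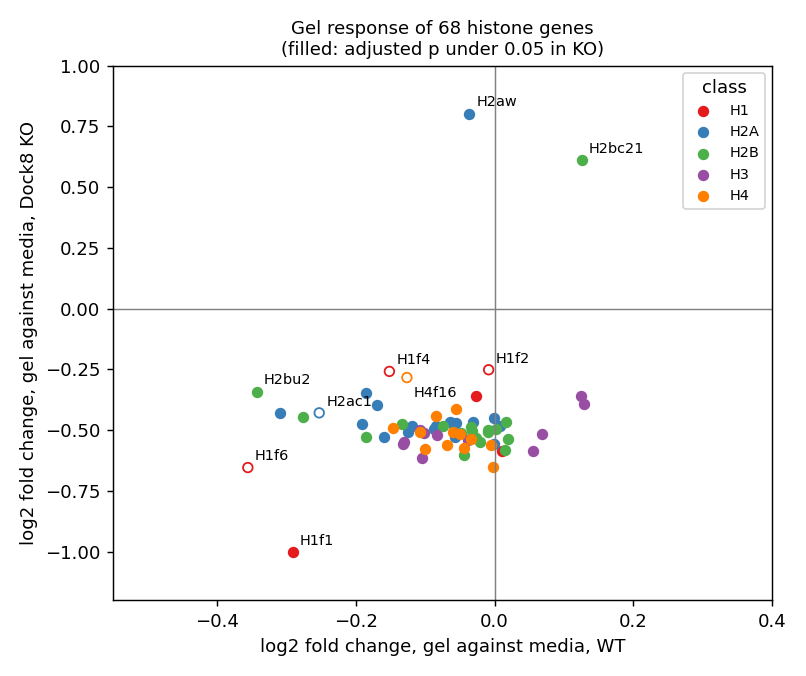
Log2 fold change of gel against media for each of the 68 histone genes in WT (horizontal axis) and in Dock8 KO cells (vertical axis), coloured by class. Filled points have an adjusted p under 0.05 in KO; most genes lie near -0.50 in KO and near -0.06 in WT, with H2aw and H2bc21 above 0 and H1f1 lowest.

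Between genotypes the histone genes differed in gel. KO gel against WT gel gave 55 genes lower and 2 higher of 68 (7.71% and 7.12% of all genes), with a median of -0.55 against 0.00 for all genes. Libraries of these groups did not overlap for 62 genes lower (19.9% of all genes) and 2 higher (18.3%). Of the 55, 44 were called in each of the 12 fits without 1 library, and neither of the 2 higher genes was. This comparison shares the KO gel libraries with the one before, so the counts are not independent of each other. By class 11 of 11 H3, 17 of 19 H2B, 15 of 19 H2A, 9 of 13 H4 and 3 of 6 H1 genes were lower. In media 0 of 68 differed between KO and WT by edgeR's test (0.189% of all genes did), 2 had an unadjusted p under 0.05 (7.49% of all genes), DESeq2 called 0 and the fit with the replicate block called 0. The median there was -0.12, against -0.01 for all genes.

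The gel response itself was compared between genotypes by the interaction of genotype and culture. It was called for 3 of 68 genes, all lower in KO (1.45% of all genes were), while 56 had an unadjusted p under 0.05 (19.6% of all genes). The median difference of response was -0.44, against 0.00 for all genes. The number called depended on the setting. DESeq2 called 25 (23 lower and 2 higher), with 1149 of 19010 genes called in all. The fit without the filter on low counts called 55 (54 lower and 1 higher), with 1768 of 39386 genes in all. The fit with the replicate block, though the numbers do not pair the KO libraries, called 60 (58 lower and 2 higher), with 3431 of 19010 genes in all. With total counts in place of scaled ones none of the 3 lower genes was called, and H2bc21 was called higher. The number also depended on single libraries. Without WT media replicate 1, the library with the highest histone level, 56 histone genes were called (2011 of 19509 genes in all). Without WT gel replicate 3 it was 16 (812 of 19506 in all) and without KO media replicate 1 it was 1 (261 of 19522 in all). Without KO gel replicate 1, KO gel replicate 3, WT gel replicate 2 or WT media replicate 2 none was called.

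The linker histones, which bind the DNA where it enters and leaves the nucleosome, fell in 3 of 6 cases in KO gel against KO media: H1f1, H1f5 and H1f3. H1f1 (formerly Hist1h1a, chr13:23763668-23764412) fell most of all histone genes. It measured 408, 481 and 407 CPM in KO media and 213, 235 and 199 CPM in KO gel. In WT it measured 496, 434 and 389 CPM in media and 394, 355 and 330 CPM in gel. The KO gel libraries were the 3 lowest of all, and the WT groups overlapped at the edge. The KO change was -1.003 (SE 0.10, adjusted p 4.6e-05 by edgeR's quasi-likelihood test), a level 50.1% lower, and KO gel against WT gel gave -0.74 (SE 0.10, adjusted p 0.000487). As a share of all H1 CPM, H1f1 made up 9.50 to 10.7% in KO media and 6.58 to 6.86% in KO gel, and 10.3 to 10.8% in WT media and 8.89 to 9.08% in WT gel. That share did not overlap between the cultures in either genotype.

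H1f5 (Hist1h1b) measured 669, 703 and 621 CPM in KO media and 430, 476 and 422 CPM in KO gel, with WT libraries from 595 to 718 CPM. It fell by 0.59 on the log2 scale (SE 0.09, adjusted p 0.000601 by edgeR's test). H1f3 (Hist1h1d) fell by 0.36 (SE 0.10, adjusted p 0.0168), a call that was lost without KO gel replicate 1 or 3 or KO media replicate 1 or 2, with an adjusted p of up to 0.0736. H1f2 and H1f4, the remaining genes with high levels, were not called.

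H1f2 (Hist1h1c), the most abundant linker histone here per kilobase of gene (1765 CPM per kb), measured 1390, 1439 and 1194 CPM in KO media and 1158, 1170 and 1052 CPM in KO gel. Its log2 fold change was -0.25 (SE 0.11, adjusted p 0.114 by edgeR's test). H1f4 (Hist1h1e) changed by -0.26 (SE 0.10, adjusted p 0.0875). Both are called in KO when WT media replicate 1 is left out, with an adjusted p of 0.0423 for H1f2 and 0.0471 for H1f4. H1f6, the testis linker histone, stayed at or under 0.7 CPM in all libraries. The summed H1 level per summed core histone level was 0.268 to 0.285 in KO gel, 0.241 to 0.276 in KO media, 0.236 to 0.239 in WT gel and 0.224 to 0.259 in WT media.

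**Figure D3:**
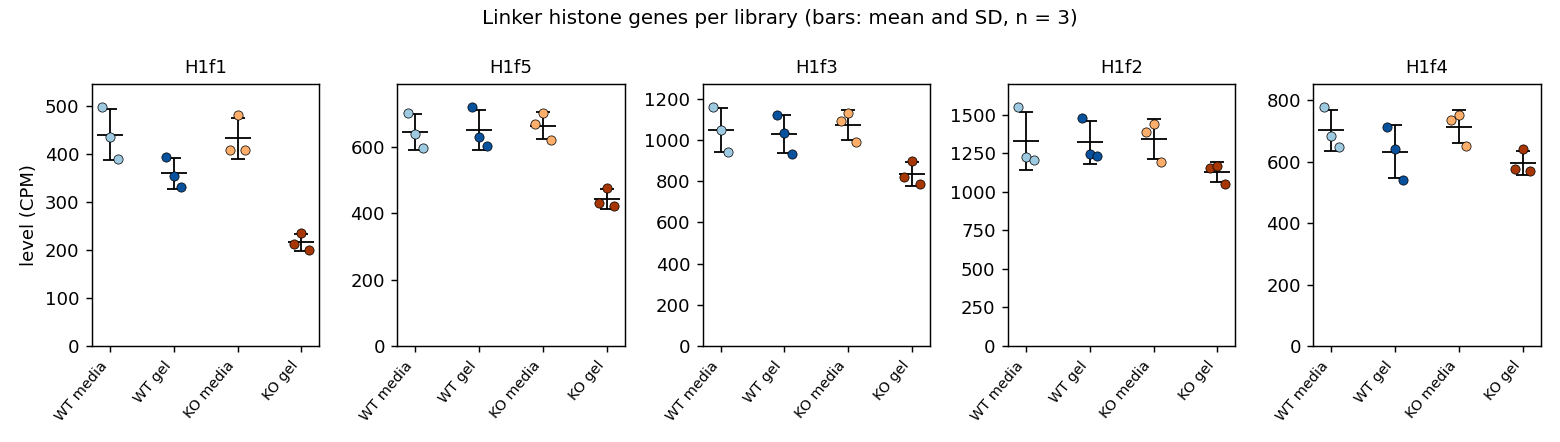
Level in CPM (vertical axis) of 5 linker histone genes in the 12 libraries by group (horizontal axis), with the mean and SD of 3. H1f1 has its 3 lowest libraries in KO gel at 199 to 235 CPM, while for H1f2 the KO gel libraries lie at 1052 to 1170 CPM, just under the others.

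The 300 bases around the start of H1f1 and of H1f2 are printed because these linker genes sit at opposite ends of the response. They are from RefSeq on GRCm38.p6, 250 bases before and 50 after the start, with capitals for matches on either strand to CCAAT, to TATAAA, to the octamer ATTTGCAT and to AAACACA, a motif named the H1 box. No match overlapped another in the printed windows. H1f1 is at chr13:23763418-23763717 on the plus strand and H1f2 at chr13:23738557-23738856 on the plus strand.
H1f1: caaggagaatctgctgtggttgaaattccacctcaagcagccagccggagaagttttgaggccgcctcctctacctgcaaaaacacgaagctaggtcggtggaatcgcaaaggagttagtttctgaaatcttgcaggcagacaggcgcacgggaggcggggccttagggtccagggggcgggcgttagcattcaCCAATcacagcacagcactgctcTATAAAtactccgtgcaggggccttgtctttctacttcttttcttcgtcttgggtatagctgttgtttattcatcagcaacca
H1f2: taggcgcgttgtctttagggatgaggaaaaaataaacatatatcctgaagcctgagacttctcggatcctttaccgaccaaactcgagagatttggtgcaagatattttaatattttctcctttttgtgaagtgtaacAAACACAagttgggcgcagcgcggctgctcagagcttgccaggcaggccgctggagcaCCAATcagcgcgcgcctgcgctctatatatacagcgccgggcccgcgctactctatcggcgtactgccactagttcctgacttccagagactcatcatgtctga
H1f1 holds CCAAT and TATAAA and no match to AAACACA, and H1f2 holds CCAAT and AAACACA and no match to TATAAA. Over all 27025 promoters of this length AAACACA was in 8.22%, and over the H1 genes in 5 of 6, H1f1 being the exception. The letters do not say whether a factor is bound there.

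Core H2A and H2B genes pair into the dimers on the outer faces of the nucleosome, and many lie as divergent pairs that share a promoter region. Of the H2A genes, H2ac10 (Hist1h2af) measured 317, 274 and 281 CPM in KO media and 207, 221 and 203 CPM in KO gel. Its change was -0.47 (SE 0.09, adjusted p 0.00273 by edgeR's quasi-likelihood test). H2ac4 (Hist1h2ab) fell by 0.47, H2ac15 (Hist1h2ak) by 0.45 and H2ac14 (Hist1h2aj), a pseudogene in RefSeq, by 0.53, with adjusted p from 0.0034 to 0.00476. H2ac19 (Hist2h2aa2), among the 3 H2A genes of highest CPM, fell by 0.40 (SE 0.12, adjusted p 0.0274), a call lost without KO gel replicate 1 or 3 or KO media replicate 1 or 2 (adjusted p up to 0.104). H2ac14 is uncertain as a single gene, because 93.1% of its 50-base windows occur in another gene. H2ac19 is uncertain too, with 100% of its windows in another gene. Its neighbour H2ac18, with 89.4% of windows shared, had at most 0.1 CPM in any library.

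Of the H2B genes, H2bc9 (Hist1h2bh) measured 378, 335 and 341 CPM in KO media and 225, 251 and 229 CPM in KO gel. WT libraries lay from 338 to 421 CPM, so the KO gel group stood clear of every other. The change was -0.58 (SE 0.09, adjusted p 0.000868 by edgeR's test), and against WT gel -0.68 (SE 0.09, adjusted p 0.000399). H2bc14 (Hist1h2bm) fell by 0.60 and by 0.72 in those comparisons, H2bc3 (Hist1h2bb), the H2B gene of highest CPM, by 0.55 and 0.66, H2bc15 (Hist1h2bn) by 0.51 and 0.62, H2bc7 (Hist1h2bf) by 0.50 and 0.56 and H2bc6 (Hist1h2be) by 0.48 and 0.58. Each of these calls held without any 1 library.

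Only H2bc21 and H2aw rose. H2bc21 (Hist2h2be, chr3:96221072-96223738), an H2B gene outside the large cluster whose transcript can also be polyadenylated, measured 8.2, 9.0 and 8.8 CPM in KO media and 12.6, 13.4 and 13.7 CPM in KO gel. WT libraries measured 8.7 to 10.01 CPM in media and 9.6 to 11.2 CPM in gel. All KO gel libraries were above the other 9. The KO change was 0.61 (SE 0.09, adjusted p 0.000519 by edgeR's quasi-likelihood test), a level 1.53 times that in media, and held without any 1 library. Against WT gel it was 0.36 (SE 0.09, adjusted p 0.0183), lost without KO gel replicate 2 or 3 or WT gel replicate 1 or 2 (adjusted p up to 0.0812).

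H2aw (Hist3h2a, chr11:58954685-58955192), an H2A gene on chromosome 11 named here after its values were seen, measured 2.6, 2.5 and 2.5 CPM in KO media and 5.4, 4.0 and 3.9 CPM in KO gel. WT libraries measured 2.1 to 3.2 CPM in media and 2.5 to 3.0 CPM in gel. The KO gel libraries were again the 3 highest. The change was 0.80 (SE 0.17, adjusted p 0.00598 by edgeR's test), and against WT gel 0.70 (SE 0.18, adjusted p 0.017), the second lost without KO gel replicate 1 or WT gel replicate 1 (adjusted p up to 0.0909). The histone gene nearest to H2aw, the pseudogene H2bu1-ps (Hist3h2bb-ps), gave -0.45 in KO gel against KO media (SE 0.11, adjusted p 0.0101 by edgeR's test). Against WT gel it gave -0.42 (adjusted p 0.0179). H2bu2 (Hist3h2ba), further off on chromosome 11, gave -0.34 in KO gel against KO media, with an adjusted p of 0.0463. That value rose to as much as 0.136 without 1 library (any KO library, WT gel replicate 2 or WT media replicate 2).

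**Figure D4:**
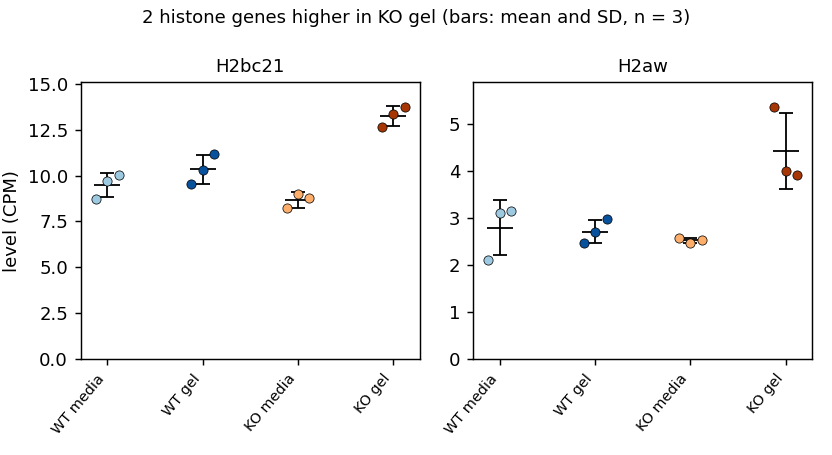
Level in CPM (vertical axis) of H2bc21 and H2aw in the 12 libraries by group (horizontal axis), with the mean and SD of 3. The 3 KO gel libraries are the highest for both genes, at 12.6 to 13.7 CPM and 3.9 to 5.4 CPM.

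The starts of H2aw, which rose, and of H2bc9, which fell, are printed for comparison with the same motifs in capitals (RefSeq, GRCm38.p6, 300 bases). H2aw is at chr11:58954435-58954734 on the plus strand and H2bc9 at chr13:23543395-23543694 on the minus strand.
H2aw: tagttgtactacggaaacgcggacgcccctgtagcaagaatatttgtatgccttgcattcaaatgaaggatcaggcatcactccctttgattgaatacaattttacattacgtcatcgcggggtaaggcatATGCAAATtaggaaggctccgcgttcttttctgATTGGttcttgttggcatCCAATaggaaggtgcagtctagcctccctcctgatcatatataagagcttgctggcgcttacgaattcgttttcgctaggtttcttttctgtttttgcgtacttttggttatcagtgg
H2bc9: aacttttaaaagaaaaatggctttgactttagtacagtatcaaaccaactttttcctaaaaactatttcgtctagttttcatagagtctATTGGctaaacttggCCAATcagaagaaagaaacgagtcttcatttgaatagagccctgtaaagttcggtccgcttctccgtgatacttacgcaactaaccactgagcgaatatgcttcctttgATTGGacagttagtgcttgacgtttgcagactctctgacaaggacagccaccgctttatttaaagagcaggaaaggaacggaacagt
H2aw holds 2 matches to CCAAT and 1 to the octamer, and H2bc9 holds 3 matches, all to the first. The motif CCAAT was in 41.1% of all promoters, and in 6 of 6 H1, 18 of 18 H2A, 16 of 16 H2B and 10 of 10 H3 promoters but 3 of 12 H4 promoters, for the 62 genes with a RefSeq promoter. The octamer was in 1.97% of all, in 7 of 18 H2A and 7 of 16 H2B, and in 0 of the H1, H3 and H4 promoters. TATAAA was in 15.7% of all and in 4 of 6 H1, 11 of 18 H2A, 8 of 16 H2B, 4 of 10 H3 and 8 of 12 H4 promoters.

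H3 and H4 form the tetramer at the centre of the nucleosome, and all but H4f16 among their reported genes fell in KO gel. H3c4 (Hist1h3d) measured 216, 200 and 186 CPM in KO media and 127, 138 and 128 CPM in KO gel, with WT from 186 to 256 CPM. It changed by -0.61 (SE 0.10, adjusted p 0.00127 by edgeR's test). H3c7 fell by 0.56, H3c2 by 0.55, H3c6 by 0.52, H3c11 by 0.52 and H3c1 by 0.51, and the 11 H3 genes ranged from -0.61 to -0.36.

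H4c4 (Hist1h4d), an H4 gene, had the highest level per kilobase of RefSeq span, 2184 CPM per kb, followed by H4c6 (Hist1h4f) at 1794 CPM per kb. This ranking covers only histone genes that span less than a kilobase and leaves out longer ones such as H2bc6. H4c4 spans 402 bases in RefSeq, while its M21 transcript with the stem-loop has 1138. H4c4 measured 1032, 954 and 896 CPM in KO media and 654, 717 and 655 CPM in KO gel, and WT libraries lay from 816 to 1171 CPM. Its change was -0.51 (SE 0.12, adjusted p 0.00774 by edgeR's quasi-likelihood test). Against WT gel it was -0.42 (adjusted p 0.0255), lost without KO gel replicate 1 or 3 or WT gel replicate 1 or 2 (adjusted p up to 0.0928). H4c11 (Hist1h4j) fell most among H4 genes, by 0.65, and H4c6 by 0.54, H4c2 by 0.58, H4c12 by 0.56 and H4c8 by 0.49. H4f16 (Hist4h4), the gene on chromosome 6, changed by -0.28 with an adjusted p of 0.0745.

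The stem-loop that ends these transcripts was looked for in the GENCODE M21 transcripts (GRCm38) as GGNNNTTTTCANNNCC with arms that pair, on the transcript strand. It was in 35 of the 70 genes and in 39 of 55341 genes in all, 0.0705%. Its commonest form, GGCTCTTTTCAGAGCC, was in 26 genes of the H1, H2A, H2B and H3 classes and in 0 H4 genes. The 9 H4 genes with a match held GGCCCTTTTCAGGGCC (7) or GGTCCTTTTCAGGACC (2). One gene of each kind is shown with the stem-loop in capitals, as its forms divide the classes. Of the 2 genes that rose, H2aw has a match, of the same form as in H1f2, and H2bc21 has none in its M21 transcripts. The windows shown are H1f2 at chr13:23739507-23739532 (plus), H2ac4 at chr13:23751567-23751592 (plus), H2aw at chr11:58955167-58955192 (plus), H4c4 at chr13:23581945-23581970 (plus) and H4c2 at chr13:23757361-23757386 (plus).
H1f2: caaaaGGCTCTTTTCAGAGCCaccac
H2ac4: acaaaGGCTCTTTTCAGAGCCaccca
H2aw: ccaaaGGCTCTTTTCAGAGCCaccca
H4c4: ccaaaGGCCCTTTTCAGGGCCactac
H4c2: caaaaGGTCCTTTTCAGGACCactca
In KO gel against KO media, 29 of the 33 reported genes with the stem-loop in their M21 transcript were lower (median -0.50), and 32 of the 35 without were (median -0.51). A transcript model that ends before the stem-loop gives no match, and neither does a stem-loop of another form than the pattern searched. The second group is therefore not a set of genes without it.

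Hist1h4m and Hist1h4n, chosen for description after their values were seen, are H4 copies on chromosome 13 whose M21 transcripts differ by 1 of 402 bases, G36A, counted from 1 at the 5′ end with the base of Hist1h4m first. The windows are on GRCm38, chr13:21811767-21811795 (plus) for Hist1h4m and chr13:21832147-21832175 (minus) for Hist1h4n, with the differing base in capitals.
Hist1h4m: acagttttgtcttcGtcatgtctggtcgt
Hist1h4n: acagttttgtcttcAtcatgtctggtcgt
Hist1h4m measured 417, 279 and 294 CPM for WT media, 364, 303 and 288 for WT gel, 245, 248 and 211 for KO media and 160, 174 and 158 for KO gel. Hist1h4n measured 430, 285 and 287 CPM for WT media, 365, 309 and 287 for WT gel, 428, 418 and 364 for KO media and 276, 308 and 269 for KO gel. The copies were even in WT and uneven in KO, in both cultures.

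Hist1h4m took 49.8% ± 0.7 of the counts of both copies in WT media, 49.9% ± 0.3 in WT gel, 36.8% ± 0.4 in KO media and 36.6% ± 0.5 in KO gel (SD, n = 3). The WT and KO libraries did not overlap. No test of this share is given, as the pair was chosen after its values were seen. The p-values by gene below come from the fits over all genes and, for the same reason, do not test a difference fixed beforehand. The sum of both copies was 846, 564 and 581 CPM for WT media, 730, 612 and 574 for WT gel, 673, 666 and 575 for KO media and 436, 481 and 427 for KO gel. Over the 402 compared bases the copies differ only at that base, and 89.8% of the 50-base windows of Hist1h4m and 85.6% of those of Hist1h4n occur in another gene, so the level of each alone is uncertain. In gel, KO against WT gave -0.96 for Hist1h4m (SE 0.13, adjusted p 0.000497 by edgeR's test) and -0.17 for Hist1h4n (SE 0.14, adjusted p 0.445). In media it gave -0.49 for Hist1h4m with an adjusted p of 0.318, and 2.99e-06 when genes of low count were not removed.

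Sharing was common in the other classes too. The median share of 50-base windows found in another gene was 67.6% for H2A, 60.4% for H3, 44.1% for H2B, 39.5% for H4 and 1.13% for H1. H1f1, H1f5 and H2bc21 shared 0% of theirs, so none of their windows of that length matched another gene's M21 transcript exactly. Matches with a differing base or on the opposite strand were not searched. H2aw shared 31.5%.

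The genes around the histone pathway are given from lists that were chosen with earlier results of these data known. Of 40 DNA replication genes, 39 fell (9.74% of all genes tested) in KO gel against KO media and 0 rose (11.1%), with a median of -0.48. Mki67, the gene not called, gave -0.03 (adjusted p 0.88 by edgeR's test) and, against WT gel, -0.16 (adjusted p 0.305). Against WT gel 37 of the 40 were lower (7.71% of all genes). In WT between gel and media 0 of 40 were called (0.0368% of all genes). Tk1, thymidine kinase, measured 81.1, 75.3 and 79.0 CPM in KO media and 46.6, 53.6 and 54.6 CPM in KO gel, a change of -0.60. Rrm1, a subunit of ribonucleotide reductase, fell by 0.54 and Cdc6, a loader of the replicative helicase, by 0.57. Histone CPM per CPM of these 40 genes was 2.15, 2.18 and 1.97 in KO gel, 2.43, 2.33 and 2.04 in KO media, 2.49, 2.15 and 1.99 in WT gel and 2.85, 2.09 and 2.15 in WT media. This ratio overlapped between all 4 groups, unlike the histone sum itself. Mki67 and Top2a had the highest levels of the 40, at 1765 to 1838 and 1211 to 1287 CPM in KO gel. The 40 genes summed to 6713 to 7298 CPM there, so the ratio leans on those genes.

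**Figure D5:**
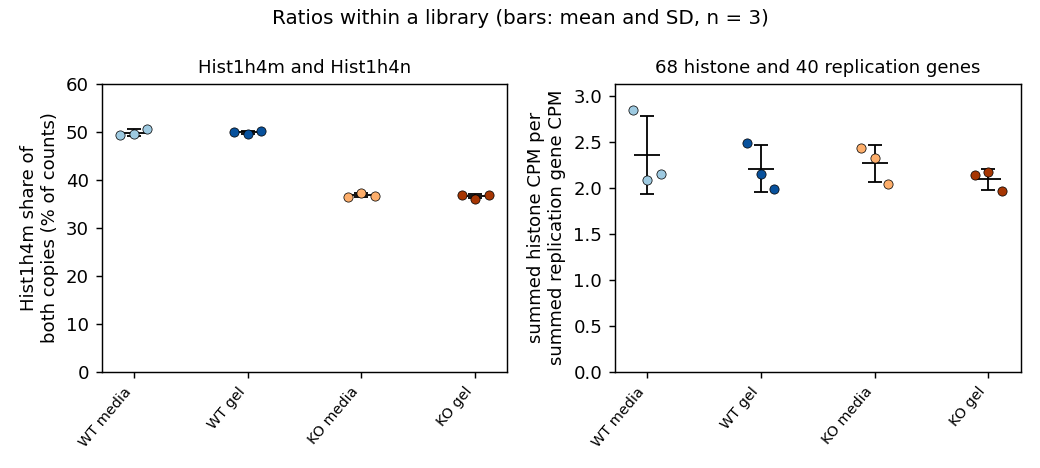
Left, Hist1h4m as a percentage of the counts of Hist1h4m and Hist1h4n; right, summed CPM of 68 histone genes per summed CPM of 40 DNA replication genes, both by group (horizontal axis) with the mean and SD of 3 libraries. The share is near 49.8% in WT and near 36.8% in KO in both cultures, and the ratio on the right overlaps between the 4 groups.

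Of 24 genes for histone gene transcription and mRNA 3′ processing, 9 fell and 1 rose in KO gel against KO media, with a median of -0.13. Of all genes tested 9.74% fell and 11.1% rose there. Slbp, the stem-loop binding protein, measured 134, 153 and 143 CPM in KO media and 99.5, 105 and 109 CPM in KO gel, a change of -0.45 (SE 0.07, adjusted p 0.000552 by edgeR's test). Ccne1, cyclin E1, fell by 0.47, Ccne2 by 0.48 and Cdk2 by 0.46. Npat did not pass the test at -0.08 (SE 0.07, adjusted p 0.414). Pcf11, a factor in cleavage and termination of polyadenylated transcripts, rose by 0.29 (adjusted p 0.0296), a call lost when any of the 6 KO libraries was left out (adjusted p up to 0.142). In those 12 fits 6 to 10 genes of the list were called lower, 6 without KO gel replicate 1.

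Of 22 histone chaperone and acetylation genes, 14 fell and 0 rose (median -0.30), where 9.74% of all genes tested fell and 11.1% rose. Chaf1b, a subunit of the CAF-1 chaperone that deposits H3 and H4 behind the replication fork, fell by 0.55. Hat1, which acetylates new H4, fell by 0.51, and Asf1b, a chaperone of H3 and H4, by 0.50. Of 11 replication-independent histone genes 4 fell and 0 rose (median -0.21), beside the same shares of all genes. Those that fell were H2ax by 0.49, H2az2 by 0.41, Macroh2a1 by 0.27 and H3f3a by 0.23. The call of Macroh2a1 was lost without KO media replicate 1 (adjusted p 0.0544), and that of H3f3a without any of the KO gel libraries, KO media replicate 1 or 2 or WT gel replicate 2 (adjusted p up to 0.0854). H3f3b, the other gene for H3.3, gave -0.02 (adjusted p 0.892) and H1f0, a linker histone of resting cells, -0.04 (adjusted p 0.929).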

How the data were processed

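Bulk RNA of 12 libraries was measured: total RNA, 150 ng per library, ribosomal RNA removed with RiboCop and libraries made with the KAPA HyperPrep kit, per the labels' protocols. The authors deposited a table of raw counts per gene symbol. The tools were HISAT2, SAMtools, Picard and featureCounts with GRCm38 (mm10), per the submitters' processing notes; the sources used here do not give the annotation, the strand setting or the treatment of reads with several matches, and the last can move counts between histone copies.

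Members and gene lists were chosen with earlier results of these data known. Counts were filtered with filterByExpr, scaled by TMM factors and fitted to all 4 groups with edgeR 4.0.16 (R 4.3.3, limma 3.58.1, robust quasi-likelihood F test, 5 contrasts, Benjamini-Hochberg over 19010 genes). The test was checked on simulated data. Alternatives were DESeq2 1.42.0, its size factors, total counts, 2 other filters, fits of the compared groups alone, of all libraries but 1, without 2 libraries rich in ribosomal RNA, and with a replicate block. The block was the replicate number within each genotype for gel against media and for the interaction. For KO against WT it was the replicate number over both genotypes. Summing Hist1h4m and Hist1h4n before the fit was added after seeing the data.

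Same-numbered libraries were compared by the correlation of their deviations from the group means over 9919 genes. It was 0.786, 0.238 and 0.796 between WT media and gel, and 0.214, 0.170 and 0.382 between KO and WT in media. The numbers were read as pairs there because none of these was below 0.1, although KO and WT cells come from different mice. The reported tests use no pairing, and only the alternative fit with the replicate block does. For KO media and gel 1 of the 3 was below 0.1 (-0.04), as was 1 for KO and WT in gel (-0.45). The remaining values for KO media and gel, 0.200 and 0.174, were close to 2 of those between KO and WT in media. The reading as pairs is therefore weak for KO and WT in media. p-values measure the spread between libraries.

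Genes were named by rule: per class the 3 of highest CPM and the 3 of smallest p in KO gel against KO media and against WT gel, all H1 genes, and per list up to 4 by p with Slbp and Npat. Other genes named serve counts or were chosen after their values were seen. RefSeq names and promoters are on GRCm38.p6, and transcripts are GENCODE M21.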

Additional observations from a re-analysis of the deposited data

Results flagged for a closer look

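For 3 histone genes the gel response differed between genotypes by the interaction in edgeR's quasi-likelihood test. The response of KO minus that of WT was -0.71 for H1f1 (adjusted p 0.0208), -0.60 for H1f5 (0.0229) and -0.60 for H2bc9 (0.0272) on the log2 scale. For H1f1 the response was -1.003 in KO and -0.29 in WT, for H1f5 -0.59 and 0.01, and for H2bc9 -0.58 and 0.01. Each of the 3 calls was lost in some of the 12 fits without 1 library: 4 for H1f1 (KO gel replicates 1 and 3, WT gel replicate 2, WT media replicate 2), 5 for H1f5 and 7 for H2bc9, with adjusted p of up to 0.0609, 0.0671 and 0.0774. All 3 calls were also lost with total counts (adjusted p 0.0542, 0.104 and 0.107) and without both libraries rich in ribosomal RNA (0.0953, 0.0862 and 0.11), and held by DESeq2, without the filter on low counts and with the replicate block. The difference kept its sign in all 12 fits without 1 library, from -0.81 to -0.63 for H1f1, -0.67 to -0.52 for H1f5 and -0.68 to -0.51 for H2bc9.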

How the results depend on the processing

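Called histone genes in KO gel against KO media numbered 63 in the reported fit and 51 to 67 over the alternatives. In KO gel against WT gel they numbered 57 and 45 to 62, so neither histone count moved by over 1.5 times. Calls over all genes moved more. Against KO media they were 3962 of 19010 in the reported fit and from 2042 of 9919 to 7804 of 19010 over the alternatives. Against WT gel they were 2819 of 19010 and from 1444 of 19492 to 4156 of 39386. In WT gel against media, 0 became 1 without the filter on low counts (H2bu2), where 195 of 39386 genes were called in all. It became 4 with the replicate block (171 of 19010 genes in all). In KO against WT media, 0 became 1 without that filter (Hist1h4m), where 435 of 39386 genes were called in all. The interaction count of 3 was the least stable: 25 by DESeq2 (2 higher), 55 without the filter (1 higher), 60 with the replicate block (2 higher), 1 with total counts (H2bc21, higher, so that all 3 lower calls ended), 0 without both libraries rich in ribosomal RNA, and 0 to 56 without 1 library. The replicate numbers do not pair the KO gel libraries by the correlation check. There the block gave 67 calls against KO media (7804 of 19010 genes in all) and 61 against WT gel (3594 of 19010 in all). H1f4 in KO against WT gel turned from -0.08 to 0.023 with total counts and ranged from -0.19 (without WT gel replicate 3) to 0.0075 (without WT gel replicate 1) with 1 library left out, uncalled throughout; the cause was not tested. Total counts shifted the median of all genes by 0.10 in KO against WT gel and by 0.12 in the interaction. Fits of the compared groups alone give no interaction. Depth limits H1f6, H2aw and H2ac1 most, at under 6 CPM.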
